A study of Mus musculus with 10 samples.

Results

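Chromatin accessibility was compared between SSEA1-sorted cells on day 6 of reprogramming (DAY6) and unsorted cells on day 3 (DAY3), with 2 peak lists per stage. Overlapping peaks of the 4 lists were merged into 87301 regions. A region was called gained when both DAY6 libraries and neither DAY3 library had a peak in it, and lost when the reverse held. There were 11211 gained regions, 12.8% of the merged regions, and 3185 lost regions, 3.65%. A further 28517 regions (32.7%) had a peak in all 4 libraries. The merged peaks of all 10 libraries of the series made 208851 regions.

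The reprogrammed cells came from mouse embryonic fibroblasts of a C57BL/6 x 129 background, with the genotype OKSM Col1a1/M2rtTA ROSA26. That is a doxycycline-driven cassette of Oct4, Klf4, Sox2 and Myc in the collagen locus with the transactivator in the Rosa26 locus. DAY3 and DAY6 cells were both grown in ESC medium with 1 ug/ml doxycycline and 50 ug/ml ascorbic acid. DAY3 cells were labelled unsorted and DAY6 cells as sorted for SSEA+, so the day and the sort cannot be told apart in this comparison. The 6 other libraries were the uninduced fibroblasts (MEF), sorted cells on day 9 of the same induction (DAY9) and V6.5 embryonic stem cells without the cassette (ESC). Each reaction took 50000 cells, all libraries carry 1 batch label, and the study's design text calls the replicates biological.

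ATAC-seq inserts sequencing adapters with the Tn5 transposase wherever DNA is not packed in nucleosomes, so its peaks mark accessible promoters and enhancers. Fibroblasts under the Yamanaka factors first close part of their own enhancers, which carry AP-1, TEAD and RUNX sites, and acquire epithelial features before the endogenous pluripotency genes switch on. SSEA1 is a fucosylated carbohydrate on the cell surface that marks the cells still on the way to pluripotency. In a bulk library, fewer cells with an open site and a less open site in every cell cannot be told apart.

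A few miRNAs and promoters are printed because gained or lost regions lay on them or near their cluster. The miRNAs are given first, from RefSeq on GRCm38.p6, with bases 2 to 8, the seed that pairs with target transcripts, in capitals. The miR-290 and miR-302 clusters, the main miRNAs of mouse pluripotent cells, share 1 seed, and miR-200b and miR-429, which repress Zeb1 and Zeb2, share another.
mmu-miR-294-3p: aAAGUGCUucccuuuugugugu
mmu-miR-291a-3p: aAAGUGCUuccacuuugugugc
mmu-miR-302b-3p: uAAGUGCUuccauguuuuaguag
mmu-miR-200b-3p: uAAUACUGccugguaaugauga
mmu-miR-429-3p: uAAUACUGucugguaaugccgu
mmu-miR-205-5p: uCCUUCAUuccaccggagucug

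The promoters are the 250 bases before the annotated start, on the gene's own strand, also from RefSeq on GRCm38.p6. Epcam (chr17:87635729-87635978, plus strand) and Krt18 (chr15:102027966-102028215, plus strand) encode an epithelial adhesion molecule and a simple-epithelium keratin, and each overlapped a gained region. Capitals mark GGGNGTGG, the letters of KLF binding sites, on either strand.
Epcam: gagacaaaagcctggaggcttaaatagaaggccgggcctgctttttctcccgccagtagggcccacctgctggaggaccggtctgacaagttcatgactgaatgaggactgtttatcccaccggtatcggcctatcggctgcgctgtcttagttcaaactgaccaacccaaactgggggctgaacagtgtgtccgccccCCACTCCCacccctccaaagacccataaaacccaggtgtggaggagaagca
Krt18: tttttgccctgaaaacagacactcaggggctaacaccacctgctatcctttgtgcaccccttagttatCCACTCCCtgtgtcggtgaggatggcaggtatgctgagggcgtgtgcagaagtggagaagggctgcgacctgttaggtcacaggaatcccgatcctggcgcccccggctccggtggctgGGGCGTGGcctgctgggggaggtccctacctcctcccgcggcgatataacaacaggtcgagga

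Cldn4 (chr5:134946935-134947184, minus strand), a tight-junction claudin, also overlapped a gained region. Cd68 (chr11:69666171-69666420, minus strand), a lysosomal protein typical of macrophages, and Ifitm3 (chr7:141010745-141010994, minus strand), an interferon-induced membrane protein, overlapped lost regions. Capitals mark TGANTCA, the letters of AP-1 sites.
Cldn4: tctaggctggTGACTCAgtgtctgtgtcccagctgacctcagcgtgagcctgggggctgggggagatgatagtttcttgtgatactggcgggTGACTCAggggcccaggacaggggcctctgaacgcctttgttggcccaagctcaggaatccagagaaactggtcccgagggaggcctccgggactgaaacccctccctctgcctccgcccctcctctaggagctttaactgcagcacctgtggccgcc
Cd68: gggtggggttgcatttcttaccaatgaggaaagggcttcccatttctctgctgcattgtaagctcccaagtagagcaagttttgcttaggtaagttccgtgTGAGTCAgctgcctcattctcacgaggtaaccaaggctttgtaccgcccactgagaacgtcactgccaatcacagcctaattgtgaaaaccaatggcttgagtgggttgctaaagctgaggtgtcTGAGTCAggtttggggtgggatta
Ifitm3: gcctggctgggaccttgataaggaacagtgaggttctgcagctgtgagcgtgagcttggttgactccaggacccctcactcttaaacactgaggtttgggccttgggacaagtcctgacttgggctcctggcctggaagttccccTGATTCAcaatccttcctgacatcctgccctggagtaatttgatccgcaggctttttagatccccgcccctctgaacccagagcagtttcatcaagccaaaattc

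Runx2 (chr17:44814628-44814877, minus strand) encodes a factor of mesenchymal and bone-forming cells and overlapped a lost region. Its capitals mark TGTGGTT, the letters of RUNX sites, here read on the other strand.
Runx2: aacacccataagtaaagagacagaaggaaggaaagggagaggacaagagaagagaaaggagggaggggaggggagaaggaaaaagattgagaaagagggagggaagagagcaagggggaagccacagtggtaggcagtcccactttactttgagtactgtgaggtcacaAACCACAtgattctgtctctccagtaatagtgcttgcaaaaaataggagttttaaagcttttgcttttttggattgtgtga

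The balance of gains and losses depended on the lengths of the lists. The DAY3 lists held 45766 and 45497 peaks, covering 27.7 Mb each, and the DAY6 lists 65145 and 58969 peaks, covering 39.3 and 33.6 Mb. When every list was cut to its 45497 highest-scoring peaks, 5682 regions were gained and 5361 lost, 8.06% and 7.60% of 70520 merged regions. The excess of gains was therefore nearly gone at equal list length. Without DAY6 replicate 1, 20697 regions were gained and 5812 lost, and without DAY6 replicate 2 there were 24649 and 4569. Leaving out DAY3 replicate 1 gave 14159 gained and 7104 lost, and leaving out DAY3 replicate 2 gave 14230 and 7220.

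**Figure D1:**
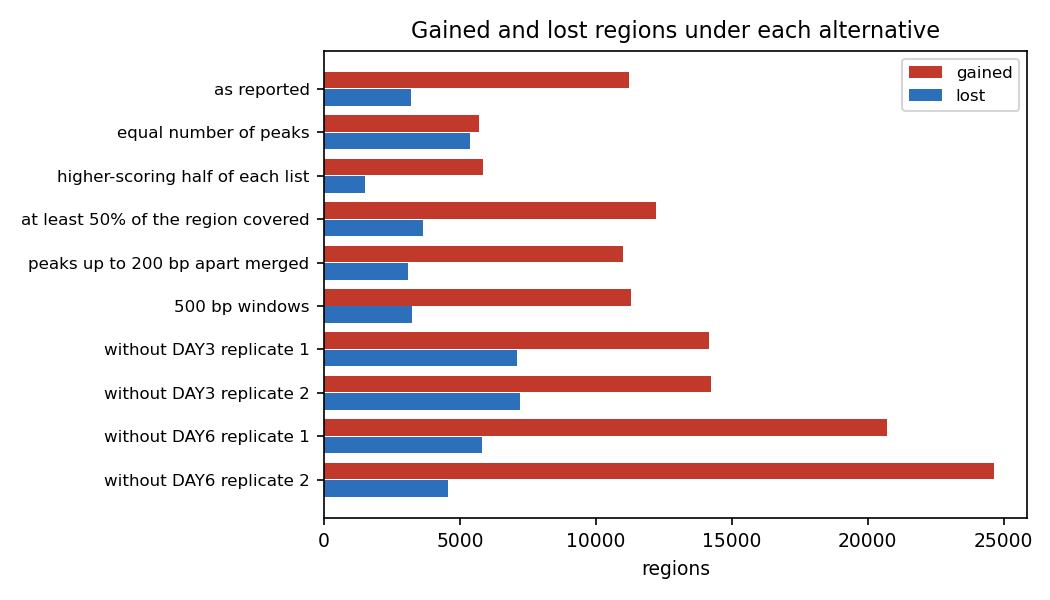
Number of gained (red) and lost (blue) regions as reported and under each alternative; the horizontal axis counts merged regions from 0. Gains exceed losses 11211 to 3185 as reported, and the bars are nearly level, 5682 to 5361, when each list holds the same number of peaks.

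The 2 DAY3 libraries differed little more than counting allows. Fragment pileups, recovered from each peak's deposited fold and p, scattered between them with a variance 1.38 times that of counting noise, over 2269 shared single-summit regions with pileups of 100 to 200. The ratio was 3.70 for the DAY6 pair and 4.69 to 8.13 between a DAY3 and a DAY6 library. The DAY3 pair was therefore read as 1 sample in judging replication, although the rule used both lists. DAY3 was thus taken to have no replicate error of its own. A comparison of 2 against 2 libraries could not give a two-sided exact permutation p under 0.333 even with the DAY3 pair taken as separate samples, so the sets are described by counts, and the intervals below (95%, exact Clopper-Pearson) cover counting error over regions only.

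Gained regions were lower and narrower than those shared by all 4 libraries. Their median authors' fold was 4.64 in DAY6 replicate 1 and 4.81 in replicate 2, against 8.21 and 8.37 in the same lists at regions with a peak in all 4 libraries. Their −log10 p was under 10 in 49.7% and 56.6% of cases. Lost regions had a median fold of 3.65 and 3.67 in the DAY3 lists, against 5.92 and 5.97 at the regions shared by all 4. Median width was 529 bp for gained, 514 bp for lost and 877 bp for shared regions, and 525 bp over all merged regions. The 22470 regions with a peak in 1 DAY6 library only were narrower still, at a median of 340 bp. A region spans all its merged peaks, so regions that join more lists tend to be wider through the merging itself. The heights come from the same peak calls that define the sets. Neither difference is therefore independent of the rule.

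Most of the changed regions lay away from gene ends. Of the gained regions, 9.00% (8.48 to 9.55) lay within 1 kb of either end of a protein-coding gene, against 5.40% (4.64 to 6.24) of the lost and 38.7% (38.1 to 39.3) of the shared regions. The share over all merged regions was 18.0%. It was 6.68% for regions with a peak in 1 DAY6 library only and 6.33% for those in 1 DAY3 library only. Lying away from gene ends was thus not particular to the gained and lost regions. Gained regions overlapped a gene body in 50.3% of cases, lost regions in 54.9% and shared regions in 70.6%, without telling exons from introns. Outside genes, the median distance to the nearest protein-coding gene was 34.3 kb for gained, 37.4 kb for lost and 25.7 kb for shared regions. Wider gained regions were more often at a gene end, 14.1% of those of 700 bp or more against 5.84% of those under 400 bp.

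**Figure D2:**
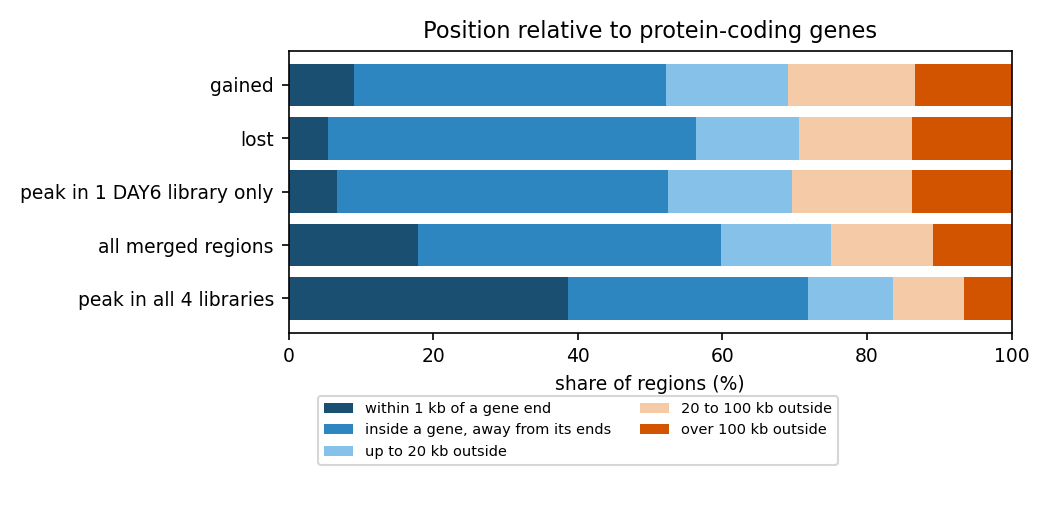
Share of regions (percent, horizontal axis) by position relative to protein-coding genes, 1 bar per set. Gained and lost regions are alike in being mostly inside genes or far from them, while 38.7% of regions with a peak in all 4 libraries touch the 1 kb around a gene end.

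By chromosome, gained regions made up between 9.74% of the merged regions (chromosome 19) and 15.0% (chromosome 1). Lost regions made up 2.62% on chromosome X to 5.16% on chromosome 19 among the autosomes and X.

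The peaks of the other stages, which the rule did not use, fell differently on the 2 sets. In DAY9, 88.0% of gained regions had a peak in each of the 2 libraries taken singly, and 83.1% (82.4 to 83.8) in both. In ESC, 55.7% and 57.7% of gained regions had a peak in replicate 1 and 2, and 46.9% (46.0 to 47.8) in both. In MEF the shares were 19.9% and 9.55%, with 7.66% in both and 78.2% in neither. For all merged regions the shares in both libraries were 63.2% in DAY9, 41.3% in ESC and 30.7% in MEF. Regions with a peak in all 4 libraries had higher shares than the gained ones, at 93.8%, 69.2% and 61.9%. Regions found in 1 DAY6 library only had an ESC peak in both libraries in 23.8% of cases and a DAY9 peak in both in 39.7%. The ESC share of gained regions rose with width, from 34.3% under 400 bp to 56.9% at 700 bp or more.

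Lost regions showed the opposite order. In MEF, 45.0% and 43.5% had a peak in replicate 1 and 2, and 36.7% (35.0 to 38.4) in both. In DAY9 the shares were 19.6% and 18.4%, with 12.9% in both and 74.9% in neither. In ESC they were 11.1% and 10.5%, with 6.25% in both and 84.6% in neither. The MEF share of lost regions was below the 61.9% of regions with a peak in all 4 libraries, and 48.2% of lost regions had no peak in either MEF library. At equal list length 53.8% of gained regions had a peak in both ESC libraries and 37.5% of lost regions in both MEF libraries.

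**Figure D3:**
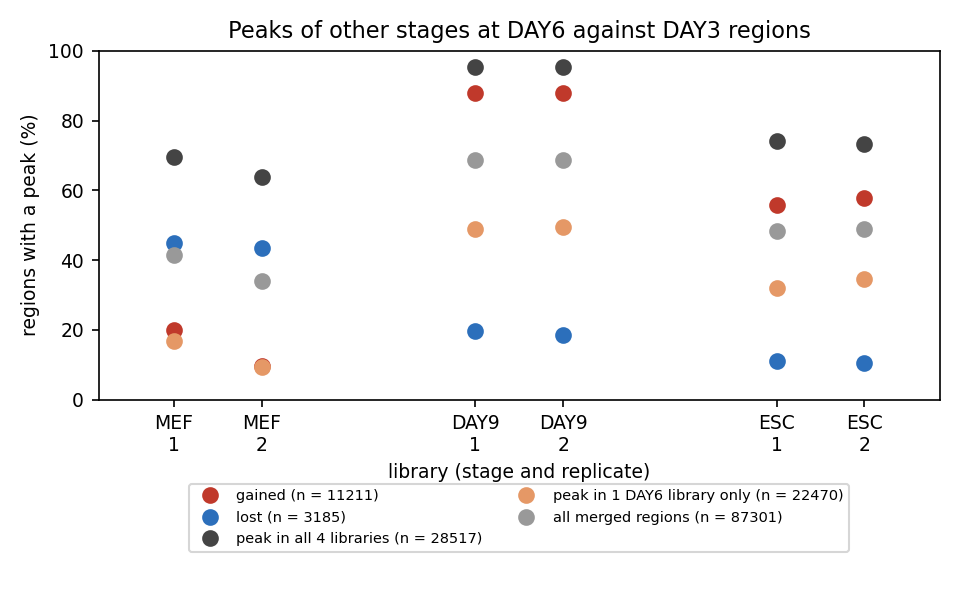
Share of regions (percent, vertical axis) with a peak in each MEF, DAY9 and ESC library, 1 point per library and set of regions. Gained regions (red) sit at 88.0% in both DAY9 libraries and below 20% in MEF, and lost regions (blue) at 45.0% and 43.5% in MEF and at 11.1% and 10.5% in ESC.

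Taken through all stages, the gained regions followed several courses. In 3516 of them (31.4%) no MEF library and both DAY9 and both ESC libraries had a peak. In 2455 (21.9%) both DAY9 libraries but neither MEF nor ESC library had one. Only 423 (3.77%) had a peak in no library outside DAY6. Both MEF libraries had a peak in 859 gained regions (7.66%), where peaks were thus called before induction and on day 6 but in neither DAY3 list. Of these, 15.3% lay at a gene end. Among lost regions, 845 (26.5%) had peaks in both MEF libraries and none in DAY9 or ESC, and 1044 (32.8%) had a peak at DAY3 alone.

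The 10 gained regions of the highest rank had folds of 14.8 to 18.5 in both DAY6 lists and peaks in both DAY9 and both ESC libraries, and none in MEF. They were ranked by the lower of their within-list percentiles of the authors' fold, which describes a height within its own list and is not compared between lists. The first, at chr6:93629647-93630338, lay 45.1 kb outside Magi1, a scaffold protein of cell junctions. Its fold was 17.1 and 18.5 in the DAY6, 17.1 and 18.9 in the DAY9 and 22.7 and 16.7 in the ESC lists. A pair of regions lay 7.90 kb from Tdpoz7 and 8.44 kb from Tdpoz5 (chr3:94080547-94081396 and chr3:93969756-93970668), with DAY6 folds of 16.8 and 17.4 at the first and 17.5 and 16.6 at the second. The Tdpoz genes are a tandem family of near-identical copies, so the reads at these places may be shared between copies. A region inside Cfap44 (chr16:44429872-44430515), a gene of the sperm flagellum, had DAY6 folds of 15.5 and 15.8. One lay 119 kb from Dll1, a Notch ligand (chr17:15247652-15248354), with DAY6 folds of 15.5 and 15.7. The others were nearest to Ncam2, Oxsm, Msrb3, Thsd7b and Lilr4b, at 16.2 to 697 kb.

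The 10 lost regions of the highest rank had DAY3 folds of 8.0 to 13.1. The first, at chr17:12095032-12095724, lay 22.8 kb from Agpat4, an acyltransferase of phospholipid synthesis. Its fold was 10.6 and 9.93 in the MEF and 10.2 and 10.6 in the DAY3 lists, and DAY9 replicate 2 alone of the later libraries had a peak. Regions inside Opn5, an opsin gene (chr17:42580612-42581219), and 2.57 kb from the olfactory receptor gene Olfr16 (chr1:172960384-172960983) had peaks in both MEF and both DAY3 libraries and in no later one. A region inside Cdk5rap2, a centrosome protein (chr4:70347168-70347931), and 1 that lay 2.66 kb from Reck, an inhibitor of matrix metalloproteinases (chr4:43947468-43948191), had peaks at DAY3 alone, with folds of 9.89 and 10.7 and of 8.36 and 8.0. Inside Gm281 (chr14:13906289-13907087), the DAY3 folds were 9.53 in both lists, no peak was called at DAY6, and the ESC folds were 9.77 and 10.0. The remaining 4 were nearest to Gramd3, Setbp1, Ltf and Il1a. Of these the Gramd3 region had peaks again in both DAY9 and both ESC libraries.

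**Figure D4:**
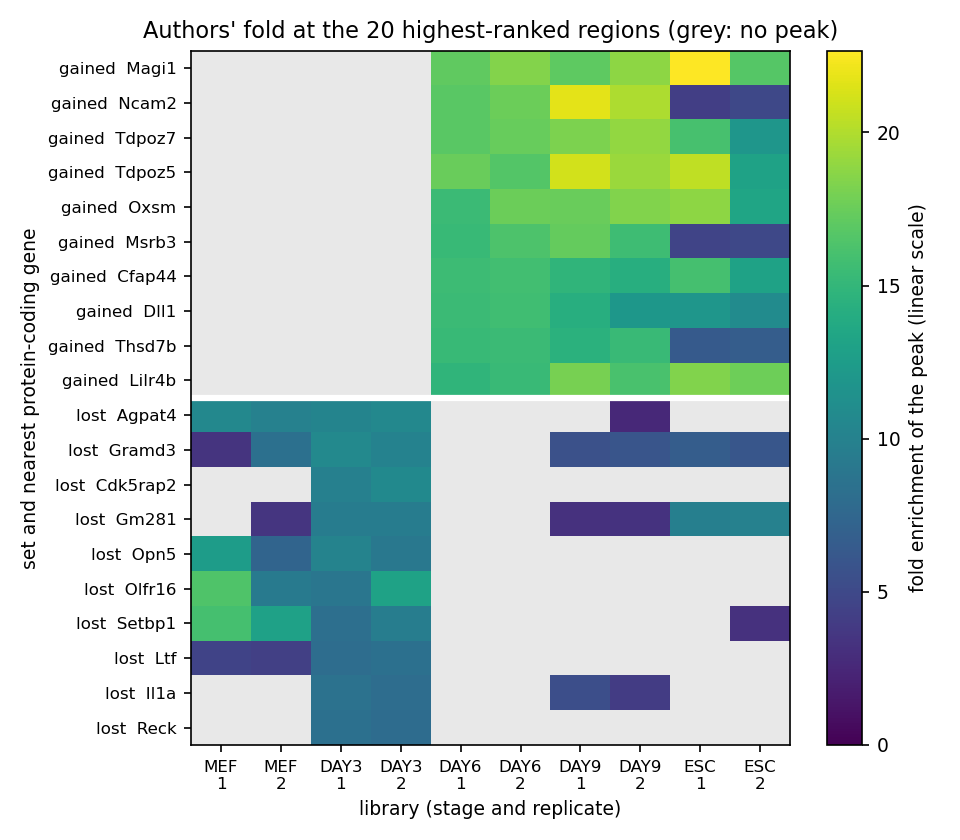
Authors' fold enrichment (colour, linear scale) in each of the 10 libraries at the 10 gained and the 10 lost regions of the highest rank, named by the nearest protein-coding gene; grey is no called peak. All 10 gained regions have peaks in DAY9 and ESC, and 6 of the 10 lost regions have peaks in both MEF libraries.

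Of 21883 protein-coding genes, 7308 (33.4%) had a gained region in the gene body or within 20 kb of it, and 2588 (11.8%) a lost one. Genes with the most gained regions were long, which gives more room for them. Ptprn2, a phosphatase-like protein of secretory granules, had 14 gained and 3 lost of 45 regions over 792 kb. The synaptic scaffold gene Magi2 had 13 gained, and Auts2 and Nrxn3 had 12. Mical3 reached 11 within 242 kb, Tenm4 had 11, and Dlg2, Ptprg, Tiam1 and Tshz2 had 10 each. Genes with the most lost regions were Clic4, a chloride channel protein, with 6 of 14 regions over 58.8 kb and no gain, and Sp140, an interferon-regulated nuclear body protein, with 6 lost and 1 gained. Csgalnact1, Lpp, Pde4d, Sp110 and Uvrag had 5 lost each. Pde4d, with 72 regions over 1302 kb, had more gained regions, 8, than lost ones. Csgalnact1 and Lpp also had 2 gained each, and Sp110 and Uvrag 1 each. All 5 lost regions of Sp110 are among the 6 of Sp140, its neighbour. A further 19 genes tied at 4, among them Ebf1, Gli2, Bnc2 and Gsn.

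Epithelial genes had the highest share of members with a gained region among the 9 lists. Of 28, 22 (78.6%) had a gained region within 20 kb and 4 (14.3%) a lost one, beside 33.4% and 11.8% of all protein-coding genes. Their median gene length was 16.8 kb, near the 17.2 kb of all genes. Of the 171 merged regions near them, 23.4% were gained, beside 11.8% of all regions near protein-coding genes. Dsg2, a desmosomal cadherin, had 4 gained regions, and Grhl2, Ovol2, Tjp3, Krt18 and Pkp1 had 3 each. With lists of equal length, 18 of the 28 had a gained and 6 a lost region, beside 19.5% and 18.5% of all genes. All 4 regions of Dsg2 were then called, 2 of 3 at Grhl2 and Tjp3, and 1 of 3 at Ovol2 and Krt18. Without DAY3 replicate 1 the number with a lost region was 10, beside 23.1% of all genes.

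Peaks at most of the single epithelial loci below were called in the DAY6, DAY9 and ESC libraries. The loci described from here on were chosen after their values were seen, apart from members with the most regions in a list. At Cdh1, the gene of E-cadherin, a gained region at chr8:106603084-106603612 had DAY6 folds of 6.98 and 7.90. The DAY9 folds were 11.6 and 10.6 and those of ESC 8.09 and 6.53. At Epcam the region chr17:87635643-87636192 covered the printed promoter, with folds of 3.59 and 4.92 in the DAY6 lists. The ESC lists had 5.74 and 7.90 there, and those of DAY9 7.15 and 7.60. The claudin gene Cldn7 had a gained region over its start (chr11:69965139-69965751), at 3.82 and 5.56 in DAY6 and 12.6 and 13.4 in DAY9. None of these 3 regions had a peak in MEF or DAY3.

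Cldn4 had gained regions over its start (chr5:134946667-134947350), at DAY6 folds of 3.62 and 4.78, and 1.05 kb into the gene (chr5:134945201-134945883), at 8.59 and 6.39. Grhl2, a factor that maintains epithelial junctions, had gained regions inside the gene at chr15:37232744-37233411 and chr15:37238597-37239112, with DAY6 folds of 5.12 and 5.42 and of 4.97 and 4.98. Both also had peaks in both DAY9 and both ESC libraries. The last one, at chr15:37339489-37339989, had a peak in DAY9 replicate 2 and in no MEF or ESC library. The regions over the starts of Cldn7 and Krt18 and the last Grhl2 region were no longer called at equal list length.

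Other members of the list had no gain. Cldn3, Krt19 and Elf3 had no gained and no lost region, and Dsp had 1 lost region. Near Krt8 and Krt18, a gained region at chr15:102013596-102014124 had peaks in both MEF libraries, at 3.22 and 2.76.

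Core and naive pluripotency factors had a gained region in 18 of 33 cases (54.5%) and a lost one in none, beside 33.4% and 11.8% of all genes. Of the 182 regions near them, 16.5% were gained, beside 11.8% near all protein-coding genes. Esrrb, an orphan nuclear receptor of naive cells, had 3 gained regions, all inside the gene. Tet2, a dioxygenase that oxidizes methylcytosine, also had 3. With lists of equal length the counts were 14 with a gained and 1 with a lost region, beside 19.5% and 18.5% of all genes, and 2 of the 3 regions at Esrrb and at Tet2 were called. Leaving out a library moved the count with a lost region from 0 to 4 (DAY3 replicate 1), 6 (DAY3 replicate 2) and 3 (DAY6 replicate 1), while it stayed 0 without DAY6 replicate 2. The shares of all genes with a lost region were then 23.1%, 23.0%, 19.8% and 16.4%.

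At Pou5f1, which encodes Oct4, the gained region lay 1.70 kb before the start (chr17:35503750-35504332). Its folds were 6.89 and 8.09 at DAY6, 9.02 and 8.80 at DAY9 and 7.69 and 4.91 for ESC. Inside Esrrb, the region at chr12:86470798-86471531, 49.2 kb from the start, had folds of 4.92 and 5.71 at DAY6, 7.38 and 7.42 at DAY9 and 8.03 and 4.66 for ESC. Sall4, a zinc finger factor, had gained regions at chr2:168764962-168765628 and chr2:168766683-168767523, with DAY6 folds of 3.78 and 4.15 and of 5.83 and 6.93. All of these regions lacked peaks in MEF and DAY3.

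Tdgf1, a co-receptor of Nodal, had a gained region 0.439 kb before its start (chr9:110946597-110947926), at DAY6 folds of 6.23 and 4.72. Nr0b1, an X-linked partner of Oct4, had 2 inside the gene (chrX:86191848-86193004 and chrX:86193242-86194274), the second at 5.99 and 6.07. The first Nr0b1 region was not called at equal list length, nor were those at Zfp42, Dppa5a and Fgf4. No gained or lost region lay within 20 kb of Nanog, Sox2, Klf4, Klf5, Tfcp2l1, Lin28a, Lin28b, Utf1, Dppa2, Dppa3, Dppa4, Otx2, Tbx3 or Dnmt3l. No promoter window of the list that is in the table overlapped a gained region.

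**Figure D5:**
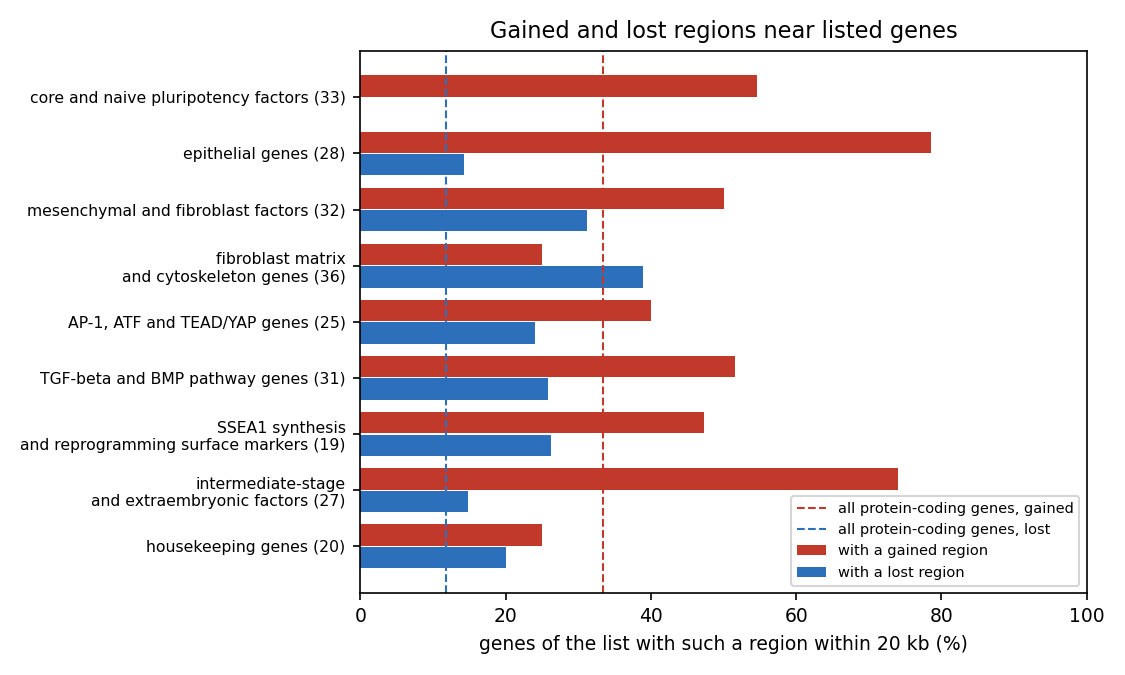
Percent of the genes of each list (number of genes in brackets) with a gained (red) or lost (blue) region in the gene or within 20 kb; dashed lines give all protein-coding genes, 33.4% and 11.8%. Epithelial genes reach 78.6% for gains, and in the matrix list more genes have a lost region (38.9%) than a gained one (25.0%). At equal list length, which cut almost only the DAY6 lists, the latter order also holds for the mesenchymal, AP-1, TGF-beta and housekeeping lists.

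Factors of intermediate stages and extraembryonic lineages had a gained region in 20 of 27 cases (74.1%) and a lost one in 4 (14.8%), beside 33.4% and 11.8% of all genes. Counted by region, 20.5% of the 151 merged regions near them were gained and 3.97% lost, beside 11.8% and 3.43% near all protein-coding genes. Grhl2 is in this list and in the epithelial one. Elf5, a trophoblast factor, had 4 gained regions, of which 2 were called at equal list length, and 1 lost. At Tfap2c, an AP-2 factor of trophoblast and early epithelium, regions at chr2:172568301-172568898 and chr2:172577183-172577778 had DAY6 folds of 9.66 and 10.8 and of 10.1 and 11.2. The second also had folds of 14.5 and 8.94 in ESC. At Cdx2 the 2 gained regions had MEF peaks as well, in both libraries at chr5:147298907-147299555 (6.10 and 3.11), and neither was called at equal list length. At equal list length 13 of the 27 factors had a gained and 8 a lost region, beside 19.5% and 18.5% of all genes. Without DAY3 replicate 1 or DAY6 replicate 2 the number with a lost region was 7, beside 23.1% and 16.4%.

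Genes of fibroblast matrix, adhesion and cytoskeleton had a lost region more often than a gained one. Of 36, 14 (38.9%) had a lost region and 9 (25.0%) a gained one, beside 11.8% and 33.4% of all genes. Their median length was 30.3 kb, against 17.2 kb over all protein-coding genes. Counted by region, 7.21% of the 208 merged regions near them were gained and 7.69% lost, beside 11.8% and 3.43% near all protein-coding genes. Vim, the intermediate filament of mesenchymal cells, and Fbn1, a microfibril protein, had 2 lost regions each. The Vim regions lay 16.5 kb before the start (chr2:13557244-13557842) and 9.16 kb after it, beyond the end of the gene (chr2:13583470-13584321). The second had folds of 7.35 and 4.65 in MEF and 5.06 and 3.32 in DAY3, and neither had a peak in DAY6, DAY9 or ESC. The counts were 14 with a lost and 5 with a gained region at equal list length, beside 18.5% and 19.5% of all genes. Without DAY6 replicate 1, 17 of the 36 had a gained and 17 a lost region, and without replicate 2 the counts were 18 and 15, so that the order was lost or turned. The shares of all genes were then 49.8% gained and 19.8% lost, and 52.9% and 16.4%. Without DAY3 replicate 1 the counts were 14 gained and 19 lost, beside 40.0% and 23.1% of all genes.

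Lost regions with the same course stood near other fibroblast genes. Inside Tagln, an actin-binding protein of smooth muscle, the region chr9:45935751-45936345 had folds of 7.73 and 4.12 in MEF and 4.96 and 3.68 in DAY3. Near Thy1, a surface glycoprotein that sorts fibroblasts away from reprogramming cells, chr9:44039757-44040113 had 7.32 and 5.66 in MEF and 3.97 and 3.67 in DAY3. Upstream of Col1a2, a chain of type I collagen, chr6:4487973-4488775 had 5.29 and 6.12 in MEF and 8.29 and 7.62 in DAY3. The same gene had 2 gained regions past its end (chr6:4550247-4550904 and chr6:4557658-4558092), neither called at equal list length. None of the 3 lost regions at Tagln, Thy1 and Col1a2 had a peak in a DAY6, DAY9 or ESC library. Regions inside Cdh11 and Fbn1, by contrast, had peaks at DAY3 alone. Cdh2, the gene of N-cadherin, had 3 gained regions and none lost, and Loxl2, Itgb1 and Col12a1 had 2 gained and 1 lost each. No gained or lost region was near Col3a1, Fn1, Acta2, Pdgfra, Pdgfrb or Dcn.

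Mesenchymal and fibroblast transcription factors had both. Of 32, 16 (50.0%) had a gained and 10 (31.3%) a lost region, beside 33.4% and 11.8% of all genes, and 8 genes had both. Their median length was 32.3 kb. Counted by region, 10.9% of the 359 merged regions near them were gained and 5.01% lost, beside 11.8% and 3.43% near all protein-coding genes. The higher gained share by gene was thus not seen by region. Foxp1, a forkhead factor, had 9 gained and 1 lost of 64 merged regions, a gained share near that of all genes. Ebf1 had 4 lost and 1 gained of 29, and Runx1 had 3 lost and 1 gained of 19. Equal list length left 10 with a gained and 12 with a lost region, beside 19.5% and 18.5% of all genes, and 5 of the 9 gained regions of Foxp1. Without DAY6 replicate 1 or 2 the number with a gained region was 25 and 26, beside 49.8% and 52.9% of all genes. The number with a lost region was 16 without DAY3 replicate 1, beside 23.1%.

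Twist2, a basic helix-loop-helix repressor of mesenchymal cells, had lost regions over its start (chr1:91801174-91802095) and 15.2 kb into the gene (chr1:91816676-91817196). The second had folds of 11.4 and 10.3 in MEF and 5.71 and 4.15 in DAY3, and no later library had a peak there. Runx2 lost a region over the printed promoter (chr17:44814484-44815299), with folds of 10.6 and 3.43 in MEF and 6.49 and 4.94 in DAY3. Inside the same gene a gained region at chr17:44547965-44548437 had DAY6 folds of 4.04 and 4.51 and DAY9 folds of 14.4 and 12.03, and was not called at equal list length. Zeb2, a repressor of E-cadherin, had 3 gained regions inside the gene and a lost one beside its start. The gained region at chr2:45088384-45089025 had DAY6 folds of 10.6 and 6.31 and peaks in both DAY9 and both ESC libraries.

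AP-1, ATF and TEAD/YAP genes had a gained region in 10 of 25 cases (40.0%) and a lost one in 6 (24.0%), beside 33.4% and 11.8% of all genes. Another 2 listed names are older symbols that did not match. Counted by region, 9.47% of the 190 merged regions near the matched genes were gained and 3.16% lost, beside 11.8% and 3.43% near all protein-coding genes. The higher shares by gene were thus not seen by region. Tead1 and Tead4, which bind DNA for the Hippo pathway, had 4 gained regions each and none lost, of 25 and 13 merged regions. At equal list length 1 of the 4 at each gene was called. The region inside Tead1 at chr7:112841459-112842388 had folds of 13.2 and 12.3 at DAY6, 14.5 and 13.8 at DAY9 and 13.5 and 13.1 for ESC. A lost region 19.2 kb from the start of Jun, an AP-1 subunit (chr4:95032607-95033006), had 9.06 and 7.05 in MEF and 5.39 and 3.19 in DAY3. No later library had a peak there. Fos, Batf and Tead2 had 1 lost region each and no gain, and each of these had later peaks. The Fos region had them in both DAY9 libraries and ESC replicate 2, and the Batf region in DAY9 replicate 1 and both ESC libraries. The Tead2 region had them in DAY9 replicate 1 and ESC replicate 2, and had none in MEF. With equal lists 4 of the 25 had a gained and 10 a lost region, beside 19.5% and 18.5% of all genes, so the order of the counts turned. Without DAY6 replicate 2, 16 of the 25 had a gained region, beside 52.9% of all genes. Without DAY3 replicate 1, DAY3 replicate 2 or DAY6 replicate 1 the number with a lost one was 10, 11 and 11. The shares of all genes with a lost region were then 23.1%, 23.0% and 19.8%.

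TGF-beta and BMP pathway genes had a gained region in 16 of 31 cases (51.6%) and a lost one in 8 (25.8%), beside 33.4% and 11.8% of all genes, with a median gene length of 39.4 kb. Counted by region, 10.4% of the 230 merged regions near them were gained and 3.48% lost, beside 11.8% and 3.43% near all protein-coding genes. The higher shares by gene were thus not seen by region. Among ligands, Bmp7 had 2 gained regions and Bmp2 and Tgfb2 had 1 each, while Tgfb3 had 1 lost. Among receptors, Acvr2b had 2 gained, Acvr1 had 2 gained and 1 lost, and Tgfbr2 had 1 lost. Smad1, a transducer of BMP signals, had 3 gained regions, and Smad7, an inhibitor of both branches, had 1 lost. The targets Id3 and Id4 had 1 and 2 gained. The Tgfb3 and Tgfbr2 regions had peaks at DAY3 alone. With equal lists 8 had a gained and 9 a lost region, beside 19.5% and 18.5% of all genes. Without DAY3 replicate 1 or replicate 2 the number with a lost region was 14 each time, beside 23.1% and 23.0% of all genes.

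The list of SSEA1 synthesis and surface markers bears on the sort. Of 19, 9 (47.4%) had a gained and 5 (26.3%) a lost region, beside 33.4% and 11.8% of all genes. Counted by region, 12.4% of the 113 merged regions near them were gained and 5.31% lost, beside 11.8% and 3.43% near all protein-coding genes. Fut9, the fucosyltransferase that makes SSEA1, had a gained region inside the gene (chr4:25670617-25671171), at DAY6 folds of 3.82 and 6.31 and ESC folds of 13.6 and 6.12. It was not called at equal list length. Fut4, the other enzyme that can add this fucose, had none. Kit, a receptor of germ and stem cells, had a gained region over its start (chr5:75574652-75575482), at 6.99 and 7.40 in DAY6 and 7.22 and 7.20 in ESC. Alpl, the alkaline phosphatase of pluripotent cells, had 3 gained regions, 1 of them called at equal list length, and 2 lost. The one 4.77 kb before its start (chr4:137801157-137801845) had DAY6 folds of 8.05 and 8.72, and the 2 lost ones inside the gene had peaks at DAY3 alone. Cd44 had 1 gained and 1 lost region.

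As a comparison, 5 of 20 housekeeping genes (25.0%) had a gained and 4 a lost region. Of the 93 merged regions near the housekeeping genes, 58.1% had a peak in all 4 libraries, beside 36.4% of the regions near all protein-coding genes. Gained regions made up 5.38% of the 93 and lost ones 4.30%, beside 11.8% and 3.43%.

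The short RNA genes printed above were picked for gained or lost regions near their clusters, and miRNA genes did not stand out as a class. Of 1005 miRNA hairpins in the RefSeq table, 86 (8.56%) had a gained region within 5 kb and 18 (1.79%) a lost one. With the same reach, gene body included, the shares of protein-coding genes were 21.7% and 7.94%. All 8 matched hairpins of the miR-290 cluster had a gained region within 5 kb, of 9 looked up, and so did the 5 of the miR-302 cluster. Hairpins of a cluster lie side by side and share these regions. At the miR-290 cluster one gained region lay 0.699 kb before the first hairpin (chr7:3217574-3217927), at DAY6 folds of 2.91 and 4.21. Another lay 11.6 kb before it (chr7:3206271-3207050), at 8.40 and 10.5. Further regions 4.53 to 16.9 kb before the cluster had a peak in all 4 libraries and in neither MEF library. The gained region at miR-302 (chr3:127544614-127545155) had DAY6 folds of 9.21 and 3.61, DAY9 folds of 6.38 and 7.29 and ESC folds of 8.40 and 10.2. It was not called at equal list length, which leaves the 5 hairpins without a gained region there.

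The epithelial miR-200b and miR-205 genes were near gained regions too, as were miR-34a and miR-21 among those looked up. Of the 3 hairpins of the miR-200b cluster, 2 had one within 5 kb, and miR-429 did not. Upstream of that cluster the gained regions were chr4:156059193-156060297, at DAY6 folds of 6.39 and 7.65, and chr4:156063898-156064658, at 4.40 and 3.83. The first had peaks in DAY9 and ESC, the second in DAY9 only. Neither hairpin of the miR-200c cluster had one within 5 kb, but 1 lay 14.5 kb upstream (chr6:124732893-124733426), at 8.98 and 8.42. A lost region lay 17.2 kb downstream of that cluster (chr6:124700204-124700699), at 7.73 and 6.58 in MEF and 4.42 and 4.65 in DAY3. Around miR-205 the gained regions were chr1:193504669-193505110 and chr1:193509965-193510599, at 4.74 and 3.67 and at 7.90 and 8.14. Near miR-125b-1 a lost region lay 1.86 kb upstream (chr9:41579559-41580070), with folds of 2.59 and 2.42 at DAY3, and a gained one 5.68 kb upstream (chr9:41575754-41576246), at 3.53 and 6.13 in DAY6. At miR-21 a gained region lay 3.19 kb downstream (chr11:86580397-86580873), at 3.44 and 3.36 in DAY6, and a lost one 6.53 kb downstream (chr11:86577135-86577539). At miR-34a the nearer of 2 gained regions lay 1.34 kb upstream (chr4:150066708-150067111), at 3.59 and 3.61. The gained regions at miR-34a, miR-21 and miR-125b-1 were not called at equal list length. Equal list length left 48 hairpins with a gained region, and without DAY6 replicate 1 or 2 there were 141 and 163.

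Promoter windows, 250 bases before to 50 after each annotated start, were seldom changed. Of 32851 windows, 690 (2.10%) overlapped a gained and 91 (0.277%) a lost region, in 633 and 86 genes, of which 432 and 49 were protein-coding. Gained windows were intermediate in base composition, with a median GC content of 56.3% and 10 CpG per 300 bases. Lost windows had 51.3% and 5, windows with a peak in all 4 libraries 62.3% and 22, and windows with no peak 47.0% and 3. Of the epithelial list, Epcam, Cldn4, Cldn7, Ocln, Tjp3, Krt18 and Spint1 had a gained promoter window, and Grhl3, Kit and Foxp1 did so in the other lists. Lost windows in the lists belonged to Twist2, Zeb2 and Runx2. With equal lists 399 windows were gained and 210 lost.

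The letters of 12 binding motifs were searched on both strands of these windows, 1 window per gene. A match is a description of the letters only, and motifs may share bases, as GGGNGTGG and the SP letters GGGCGG can. The AP-1 letters TGANTCA stood in 19 of 86 lost genes, 22.1% (13.9 to 32.3), against 7.27% (5.37 to 9.57) of the 633 gained genes and 7.93% of all 27025. The RUNX letters TGTGGTT stood in 16.3% (9.20 to 25.8) of lost, 3.79% of gained and 5.37% of all genes. The TEAD letters GGAATG stood in 27.9% (18.8 to 38.6) of lost, 14.5% of gained and 14.6% of all genes. Windows with no peak, whose median GC content was 47.0%, held them in 10.6%, 7.11% and 16.9% of genes.

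At equal list length, lost windows covered 197 genes, of which 18.3% held the AP-1, 9.64% the RUNX and 23.4% the TEAD letters. The RUNX share was 8.25% without DAY6 replicate 1 and 9.60% without replicate 2. The KLF letters GGGNGTGG stood in 25.1% (21.8 to 28.7) of gained genes and in 24.0% of genes with a peak in all 4 libraries. They stood in 17.6% of all genes and 16.3% (9.20 to 25.8) of lost ones. The OCT letters ATGCAAAT stood in 2.84% (1.69 to 4.46) of gained genes and 1.75% of all. Most gained regions lay outside promoters, and their own sequence was not analysed here.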

How the data were processed

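ATAC-seq peak lists of 10 libraries were used, 4 of them in the comparison. Peaks were called per library by the authors. The submitters' processing notes name Bowtie2 2.3.2, deepTools 2.3.6, MACS2 2.1.1 and mm10, and read filters and calling thresholds are not given in the sources used here. The deposited values per peak are a score, a fold enrichment and −log10 p and q values. No peak had a deposited −log10 p under 5.00. Of peaks in the 10 lists, 12.2% to 19.7% carry a letter that marks one of several summits, and 1 row is present for each such peak. Depth is unknown, since no library totals were used.

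Peaks of the 4 lists sharing at least 1 bp were merged (Python 3.11.15, numpy 2.4.6, pandas 2.3.3, scipy 1.17.1), and a region has a library's peak when they share at least 1 bp. A region's fold is the highest among its peaks. Whole fragment pileups were recovered from fold and p for nearly all peaks with −log10 p up to 300, within 0.02. Genes, promoters and miRNAs came from RefSeq on GRCm38.p6, the assembly that mm10 names. The 10 gained and 10 lost regions with the highest lower within-list fold percentile, the genes with the most regions within 20 kb, and list members with the most were named by rule. Of 249 genes in 9 lists, 247 matched. The gene lists, members and tests were chosen with earlier results of these data known. The code was tested on simulated data. No p-value was computed. Some genes that the rule would name are not reported here.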

Additional observations from a re-analysis of the deposited data

How the results depend on the processing

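At equal list length, 5682 regions were gained and 5361 lost. Keeping the upper 50% of each list by score gave 5839 gained and 1491 lost. Under that setting 63.0% of gained regions had a peak in both ESC libraries and 46.4% of lost regions in both MEF libraries, and at equal length the ESC share was 53.8%. With at least 50% of the region covered these shares were 44.2% and 33.1%, and with 1 library of the other stage enough they were 66.5% and 51.8%. Merging peaks up to 200 bp apart or using 500 bp windows kept both counts within 1.5 times and both shares within their intervals. Leaving out 1 library gave 14159 to 24649 gained and 4569 to 7220 lost regions, an ESC share of 34.9% to 48.2% and a MEF share of 28.4% to 37.4%. The cause of these shifts was not tested beyond the number of peaks each setting admits. The alternatives for promoters, motifs, miRNAs, lists and single loci were chosen after seeing the data. With 1 library left out, promoter windows numbered 954 to 1127 gained and 169 to 208 lost, and the AP-1 share of lost promoters was 17.4% to 19.1%. With a reach of 5 kb, 21.7% of protein-coding genes had a gained and 7.94% a lost region, and with 50 kb 49.8% and 18.7%. Within 5 kb, the number with a gained region was 20 for epithelial, 16 for pluripotency, 13 for intermediate-stage, 13 for mesenchymal, 10 for TGF-beta, 7 for AP-1 and 2 for matrix genes. The number with a lost one was 10 for matrix, 10 for mesenchymal, 4 for TGF-beta, 3 for AP-1 and 2 for intermediate-stage genes. Of 119 gained and 52 lost regions near the loci looked up, 71 and 52 were called at equal length. That cut left the DAY3 lists almost whole, so the lost count could hardly fall and is no check of the losses. In the upper 50% of each list by score, 37 gained and 12 lost regions were called.

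Requiring each same-numbered pair of libraries to change, a replicate block, is the same rule as the one used and gave 11211 gained and 3185 lost regions, with shares of 46.9% and 36.7%. Deviations of same-numbered libraries had r = -0.00325 over 87301 regions. The DAY3 libraries differed little more than counting allows, so this value cannot show whether the replicate numbers mark pairs.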

Other observations

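The next genes were picked from the 86 with a lost promoter window after their values were seen, not from a list, and their number was set against no background. Ifi211, a DNA sensor of the interferon response, had folds of 10.7 and 9.50 in MEF and 4.92 and 5.10 in DAY3 and no later peak (chr1:173912773-173913455). Casp12, an inflammatory caspase, had 11.1 and 9.12 in MEF and 6.19 and 6.22 in DAY3, also without a later peak (chr9:5345100-5345860). Lgals9 and Ifit3b had peaks in both MEF and both DAY3 libraries and in none after. Il18, a cytokine, had 11.3 and 8.80 in MEF and 5.55 and 3.83 in DAY3, with single peaks in DAY9 replicate 1 and ESC replicate 2. Ifitm3 and Cd68 had peaks in both ESC libraries again. Sp110, Sp140 and Sp100, interferon-regulated nuclear body genes, held 6 lost regions within 59.4 kb (chr1:85599077-85658450) of 17 merged regions there. These are paralogs side by side, so reads may be shared between them.

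The densest group of gained regions was 10 within 98.7 kb at chr6:47657953-47756680, where 24 regions were merged and none was lost. They lay among the predicted genes Gm40367, Gm40365, Gm36327, Gm40364 and Gm40363 with a median spacing of 4.33 kb, the shortest 4.29 kb. Whether they are copies of 1 sequence was not tested. A group of 8 lay within 79.6 kb at Bcr (chr10:75065665-75145306).

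Of the lost regions, 199 (6.25%) had a peak in both ESC libraries, and 16.1% of these lay at a gene end, against 5.40% of all lost regions. Of the gained regions, 463 (4.13%) had peaks in both MEF, both DAY9 and both ESC libraries, so that only the DAY3 lists lacked them, and 19.9% of these lay at a gene end. Their median folds in the DAY6 lists were 4.80 and 4.81.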
